A study of Mus musculus with 12 samples.

Results

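Cytochrome P450 enzymes are a family of haem proteins that oxidize drugs, fatty acids, sterols and vitamins. The genes described here were all protein-coding genes of the deposited table whose symbol begins with Cyp followed by a number. There were 101 such genes among the 35275 genes of the table, and 86 of them had at least 1 read in the 12 libraries. The other 15 had no reads. Another 15 symbols of the same form had a different gene type, such as pseudogene or antisense, and were left out.

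RNA was sequenced from kidney tissue of C57BL/6J mice at 6 months of age, with 4 mice in each of 3 groups. WT mice carried no engineered allele. RC/RC mice were homozygous for the RC allele of Pkd1, an engineered amino acid change known from human polycystic kidney disease. It lowers the function of the gene and leads to cysts that grow slowly. RC/RC:Casp1KO mice carried the same Pkd1 genotype and were also homozygous for Del3, a small deletion in Casp1 made with TALENs, so every mouse with the Casp1 deletion was also RC/RC and a Casp1 knockout on the WT Pkd1 background was not analysed here. The deletion is in the germline and was 1 of several alleles made. RC/RC against WT asked what cystic disease changed, and RC/RC:Casp1KO against RC/RC asked what loss of Casp1 changed within it. Both of these comparisons used the same RC/RC libraries, and both comparisons with WT used the same WT libraries. Libraries held 18019819 to 24869454 counted reads, so a gene with 3 reads in 1 library lay between 0.115 and 0.166 CPM, where CPM is the read count scaled to the size of the library with TMM factors. Casp1 itself, which checks the labels, was at 1.29 to 2.06 CPM in WT, 2.62 to 4.26 CPM in RC/RC and 0.385 to 1.05 CPM in RC/RC:Casp1KO.

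Most P450 enzymes sit in the endoplasmic reticulum and receive electrons from P450 oxidoreductase, while some enzymes of vitamin D and steroid metabolism, such as Cyp24a1, Cyp27b1 and Cyp11a1, sit in mitochondria and receive them from ferredoxin. In the kidney the proximal tubule is the main site of P450 expression. Renal P450 enzymes activate and degrade vitamin D and turn arachidonic acid into epoxides and 20-HETE, lipids that act on blood vessels and salt transport. Several mouse kidney P450 genes are also known to depend on androgens, and therefore differ between the sexes.

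Some features of the libraries bear on every result below. In the first place 6 libraries, 2 in each group, had Xist, the RNA of the inactive X chromosome, at 278 CPM or more and summed Y-linked genes at no more than 0.346 CPM. The other 6 had Xist at no more than 0.818 CPM and summed Y-linked genes at 134 CPM or more. The labels give 2 females and 2 males per group, but the columns of the table carry mouse numbers only, so the libraries are described here by their Xist level and were not assigned a sex. RC/RC library 2 stood apart in fat genes. The summed level of 5 adipose markers was 1755 CPM there, led by Cfd at 1014 CPM, against 40.1 to 210 CPM in the other 11 libraries. RC/RC:Casp1KO library 4 had 166 CPM over 5 tubular injury markers, close to the 152 to 252 CPM of the RC/RC libraries, while the other 3 libraries of its group had 31.7 to 48.9 CPM.

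A small number of abundant genes made up most of the P450 signal. By FPKM, which divides by gene length and so allows levels of different genes to be compared, the 10 highest genes held 84.7% of the summed P450 FPKM of WT kidneys. The highest was Cyp4b1, a hydroxylase of fatty acids and xenobiotics, at 1360 ± 1350 FPKM (SD, n = 4). Cyp2j5, an arachidonic acid epoxygenase of the proximal tubule, followed at 566 ± 76.9 FPKM. Cyp2e1, known for ethanol oxidation, was at 350 ± 357 FPKM and Cyp2a4, a steroid hydroxylase, at 241 ± 110 FPKM. Cyp4a10, Cyp2d26, Cyp2d12, Cyp4a31, Cyp2j11 and Cyp4a14 lay between 170 and 102 FPKM. The spread over the WT libraries was about as large as the mean for Cyp4b1, Cyp2e1 and Cyp4a14, and neighbours in this order did not differ beyond their spread. None of the 10 was called in any comparison. Counted by mean CPM over all 12 libraries, 16 P450 genes were at 100 CPM or more, 14 were between 10 and 100 CPM, 15 were between 1 and 10 CPM and 41 were under 1 CPM.

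**Figure D1:**
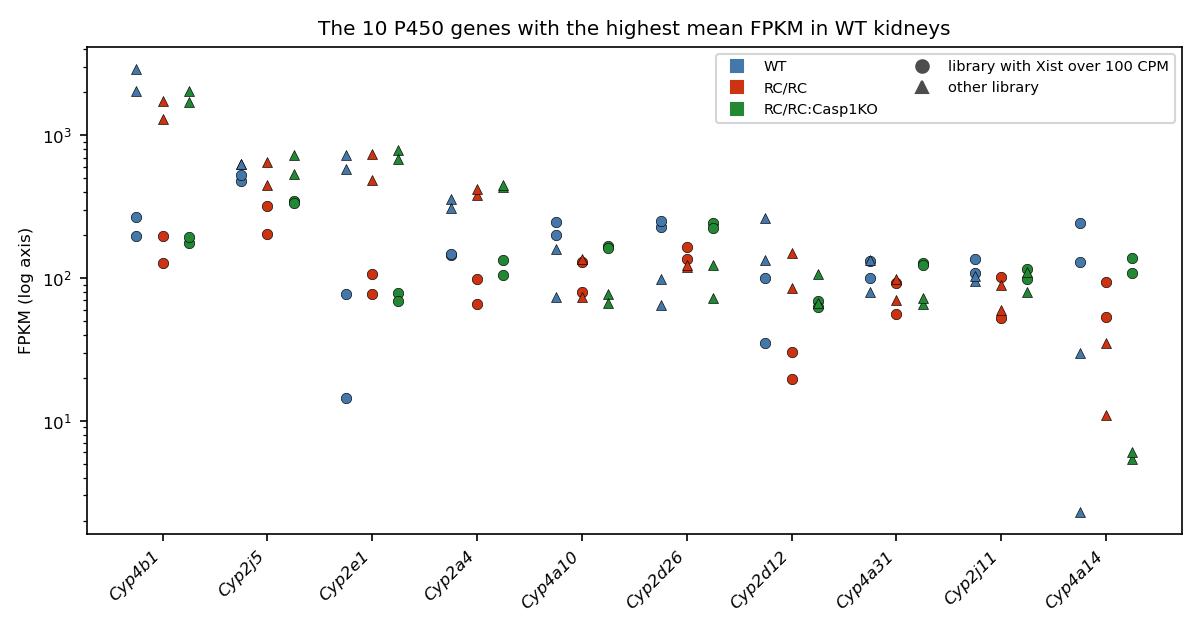
FPKM (log axis) of the 10 P450 genes with the highest mean in WT kidneys, 1 point per library, with colors for the groups and circles for the 6 libraries with Xist over 100 CPM. For Cyp4b1, Cyp2e1 and Cyp2a4 the triangles lie above the circles in every group, and for Cyp4a14 below them.

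Together P450 genes took 0.446 to 1.15% of all reads in WT, 0.297 to 0.985% in RC/RC and 0.479 to 1.07% in RC/RC:Casp1KO. The ranges of the groups overlapped, but RC/RC libraries 1 and 2, the pair with Xist, were at 0.398% and 0.297% and so below every library of the other groups. The sum of all P450 genes was 8144 ± 3442 CPM in WT, 6139 ± 3486 CPM in RC/RC and 7397 ± 3412 CPM in RC/RC:Casp1KO (SD, n = 4). In every group both libraries with Xist had lower sums than the others. Among the Xist libraries the sums were 4640 and 5844 CPM in WT libraries, 3735 and 2817 CPM in RC/RC and 4586 and 4427 CPM in RC/RC:Casp1KO. Among the others they were 11793 and 10301 CPM, 7725 and 10277 CPM, and 11151 and 9423 CPM. Within either kind of library RC/RC thus lay below WT, by little for RC/RC library 4, and no test was made of this split.

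Differences between libraries within a group were wider for P450 genes than for other genes. The median SD within groups was 0.64 on the log2 scale over the 50 P450 genes tested in at least 1 comparison and 0.27 over all 15773 genes tested. Of these 50 P450 genes, 11 were lower in both Xist libraries than in both other libraries in every one of the 3 groups, a share of 22% against 5.38% of all genes tested. Another 8, or 16%, were higher in both Xist libraries in every group, against 5.24% of all genes. These shares are a description, and no test was made of groups of libraries that the table does not label.

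The gene with the widest separation was Cyp2j13, a member of the Cyp2j cluster, which was chosen for mention after its values were seen. It had 0.383 to 1.67 CPM in the 6 Xist libraries and 255 to 516 CPM in the other 6. Cyp7b1, the oxysterol and steroid 7-alpha-hydroxylase, had 2.11 to 5.00 CPM against 106 to 166 CPM. Cyp4b1 had 239 to 506 CPM in the Xist libraries and 2450 to 5472 CPM in the others. Thus for each of these genes the 6 Xist libraries lay below all of the other libraries, whatever the genotype. Cyp2e1 ran from 26.3 to 197 CPM against 893 to 1440 CPM. Cyp4a12a, the main 20-HETE synthase of the male mouse kidney, ran from 2.49 to 43.8 CPM against 75.7 to 565 CPM. Cyp2j5, Cyp2a4, Cyp2d9, Cyp27a1, Cyp4a12b and Cyp4a32 were also lower with Xist in every group.

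Genes with the opposite order included Cyp4a14, a fatty acid omega-hydroxylase, at 133 to 612 CPM in the Xist libraries and 5.74 to 87.0 CPM in the others. Cyp51, the lanosterol 14-alpha-demethylase of cholesterol synthesis, was at 205 to 437 CPM against 145 to 199 CPM. Cyp2d26, Cyp2d22, Cyp20a1, Cyp2s1, Cyp4f14 and Cyp2u1 were the other 6. Kap, a kidney gene known to respond to androgen, was at 2348 to 6945 CPM in the Xist libraries and 12815 to 18236 CPM in the others, so it fell in the same order as Cyp4b1.

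**Figure D2:**
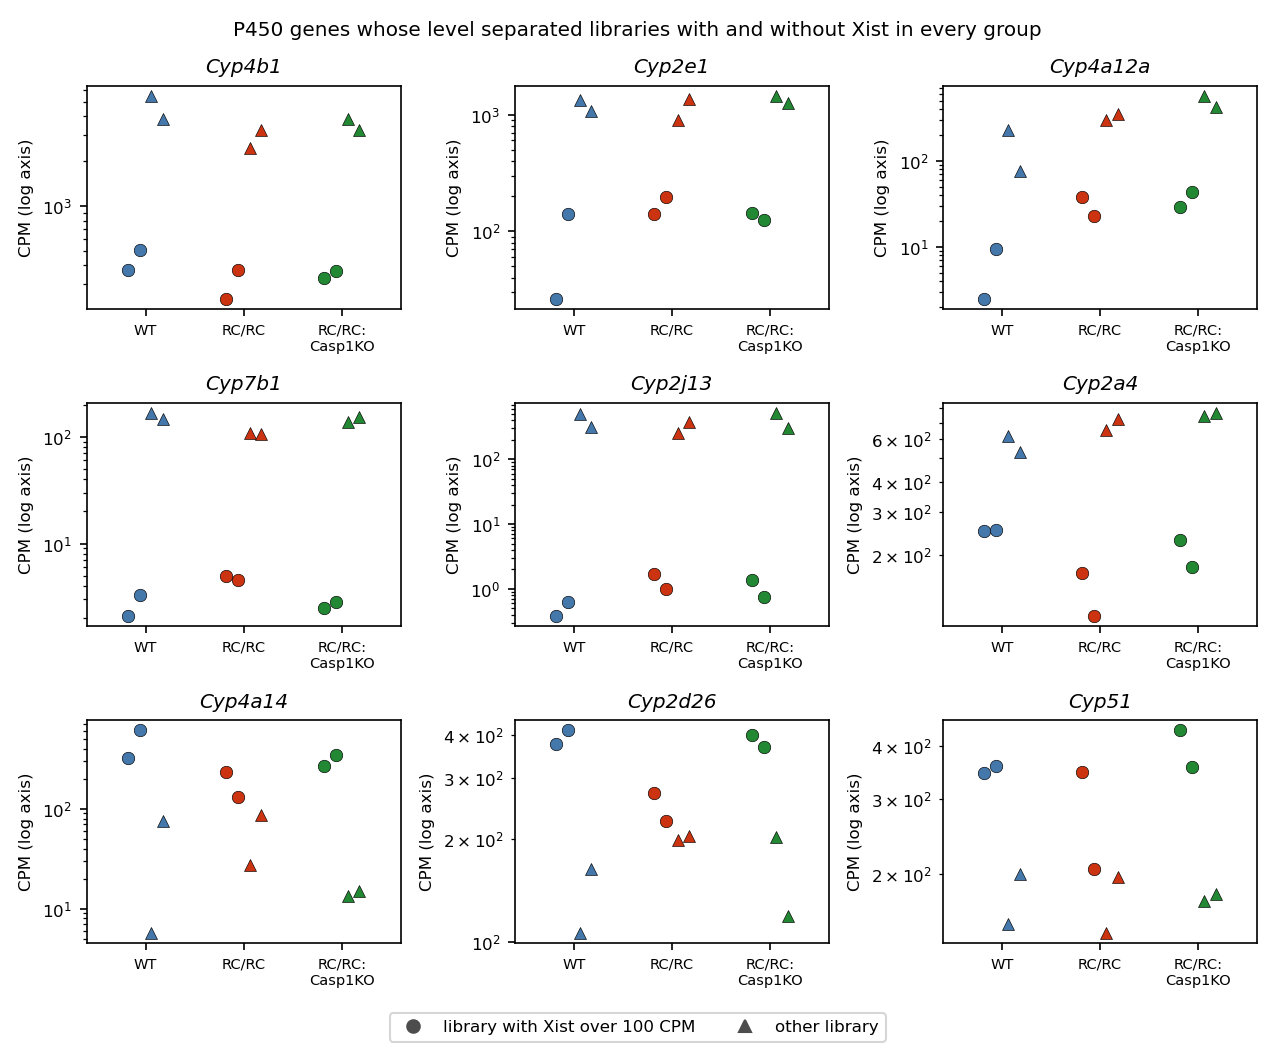
CPM (log axis) of 9 P450 genes, 1 point per library, by group, with circles for libraries with Xist over 100 CPM and triangles for the others. In each panel the circles and triangles are separate within every group, and for Cyp2j13 the circles are at 1.67 CPM or less and the triangles at 255 CPM or more.

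Because these differences lie within every group, the fit of each comparison was also made with 1 surrogate variable, estimated from all genes. In all 3 comparisons its sign was the same for all libraries with Xist and the opposite for all others. The main test was the quasi-likelihood test of edgeR, in which p was adjusted over all genes by the Benjamini-Hochberg method. The fit with the surrogate variable kept all P450 calls of the main test, and its values are given below for the P450 genes it added and for companion genes described here whose call it changed. Genes were called at an adjusted p under 0.05.

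Between RC/RC and WT kidneys, 47 of the 86 P450 genes had enough reads to be tested, and 6 were called. Cyp1a1, Cyp3a13, Cyp2a5, Cyp4f18 and Cyp4f39 rose, and Cyp24a1 fell. Of all 15243 genes tested 12.9% were called, 9.76% as higher and 3.18% as lower, against 10.6% and 2.13% of the P450 genes tested. The shares of P450 genes were thus near the background in both directions. Among the tested P450 genes 33 had a negative and 14 a positive log2 fold change, and their median was -0.40, against -0.02 over all genes tested. With the surrogate variable 8 P450 genes were called as higher and 4 as lower, against 12.2% and 5.73% of all genes. All 6 genes of the main test were among these 12. Of the 47 tested P450 genes 5 lay wholly higher and 3 wholly lower in RC/RC than in WT, among them all 6 called genes. This separation was seen in 12.7% of all genes as higher and 6.58% as lower. RNA from a whole kidney cannot tell fewer cells of a type from less RNA per cell. Without RC/RC library 2, the library with fat genes, 2 P450 genes were called as higher and 1 as lower.

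The vitamin D enzymes are a group of 3: Cyp2r1 makes 25-hydroxyvitamin D, Cyp27b1 makes the active hormone in the proximal tubule, and Cyp24a1 degrades it. Cyp24a1 (mm10, chr2:170482708-170497145, minus strand) was at 314, 297, 189 and 270 CPM in the WT libraries. In RC/RC it was at 131, 11.1, 38.6 and 42.5 CPM, and in RC/RC:Casp1KO at 27.6, 56.6, 74.4 and 89.2 CPM. Every WT library lay above every library of the other groups, while RC/RC and RC/RC:Casp1KO overlapped. RC/RC library 2, with the fat genes, was the lowest of all 12. The mean in WT, 267 ± 55.2 CPM (SD, n = 4), was 4.78 times that in RC/RC and 4.32 times that in RC/RC:Casp1KO. The log2 fold change was -2.27 ± 0.59 (SE) in RC/RC against WT (edgeR adjusted p = 0.0351) and -2.10 ± 0.33 in RC/RC:Casp1KO against WT (edgeR adjusted p = 0.0195). Against RC/RC, loss of Casp1 gave a difference of 0.16 ± 0.61 (edgeR adjusted p = 0.879), and the sign of this difference changed without RC/RC library 2 or RC/RC:Casp1KO library 4. Over the fits that left out 1 library, the log2 fold change of RC/RC against WT ran from -3.13 without RC/RC library 1, the highest of its group, to -1.96 without library 2. Leaving out 1 library at a time kept the direction against WT, but the call of RC/RC against WT was lost without WT library 1, 2 or 4 or without RC/RC library 3 or 4, with edgeR adjusted p up to 0.102. In the RC/RC:Casp1KO comparison it was lost without WT library 1, 2 or 4 or RC/RC:Casp1KO library 2, with adjusted p up to 0.0730.

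The other vitamin D enzymes were not called. Cyp27b1 was at 3.40 to 7.64 CPM in WT, 3.79 to 12.1 CPM in RC/RC and 4.39 to 9.34 CPM in RC/RC:Casp1KO. Cyp2r1 was at 0.899 to 2.35 CPM in WT, 0.917 to 1.98 CPM in RC/RC and 1.44 to 1.85 CPM in RC/RC:Casp1KO. The groups overlapped for both. Vdr, the vitamin D receptor, for which Cyp24a1 is a known target gene, fell in RC/RC by 0.79 ± 0.18 on the log2 scale (edgeR adjusted p = 0.0192), from 248 to 319 CPM in WT to 115 to 204 CPM, and the call was lost without WT library 4 or RC/RC library 3, with edgeR adjusted p up to 0.0615. With the surrogate variable Vdr was also called in RC/RC:Casp1KO, at 0.49 against RC/RC (edgeR adjusted p = 0.0443) and -0.30 against WT (edgeR adjusted p = 0.0473).

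Families 1 to 3, without the genes listed as epoxygenases or vitamin D enzymes, hold many enzymes that oxidize drugs and foreign chemicals. They also hold others, such as the steroid hydroxylase Cyp2a4. Of the 16 genes tested in this group 3 rose in RC/RC and none fell, where 9.76% and 3.18% of all genes did. Cyp1a1, the classical target of the aryl hydrocarbon receptor AHR, was at 1.24, 0.909, 0.949 and 0.703 CPM in WT libraries and at 2.09, 3.05, 2.16 and 2.19 CPM in RC/RC. In the RC/RC:Casp1KO libraries it was at 1.15, 0.854, 0.443 and 0.727 CPM. Every RC/RC library lay above every library of the other groups, and WT and RC/RC:Casp1KO overlapped. These levels rest on 8 to 58 reads per library. The log2 fold change of Cyp1a1 was 1.31 ± 0.27 against WT (edgeR adjusted p = 0.0131) and -1.56 ± 0.31 in RC/RC:Casp1KO against RC/RC (edgeR adjusted p = 0.0191). The rise was called in all 8 fits that left out 1 library. The fall was lost without RC/RC library 2 or 3 or RC/RC:Casp1KO library 2, with edgeR adjusted p up to 0.0602.

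Cyp1b1, the other member of family 1 with more than a few reads, is also a known AHR target, and it acts on steroids. It was at 69.6, 44.7, 45.4 and 54.8 CPM in WT libraries, 69.9, 100, 75.1 and 64.1 CPM in RC/RC and 31.3, 46.3, 32.5 and 50.9 CPM in RC/RC:Casp1KO. RC/RC overlapped with WT but lay wholly above RC/RC:Casp1KO. Cyp1b1 had a log2 fold change of -0.94 ± 0.20 in RC/RC:Casp1KO against RC/RC (edgeR adjusted p = 0.0226) and 0.52 ± 0.18 in RC/RC against WT (edgeR adjusted p = 0.0948), so that only the fall was called. The fall was lost without RC/RC library 2 or 3 or without RC/RC:Casp1KO library 1, 2 or 3, with edgeR adjusted p up to 0.0600. Cyp1a2 had 1 read in all 12 libraries. Ahr itself was at 8.43 to 12.7 CPM in WT, 11.98 to 18.8 CPM in RC/RC and 12.1 to 15.4 CPM in RC/RC:Casp1KO. In RC/RC against WT its log2 fold change was 0.54 ± 0.19 and not called in the main test (edgeR adjusted p = 0.0925), and 0.50 ± 0.13 and called with the surrogate variable (edgeR adjusted p = 0.0289). Arnt, its partner, rose in RC/RC:Casp1KO against RC/RC by 0.41 ± 0.11 on the log2 scale (edgeR adjusted p = 0.0434), a call kept in 1 of 8 fits, the one without RC/RC library 1, with edgeR adjusted p up to 0.118.

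Fibroblast markers moved in the direction of Cyp1a1 and Cyp1b1 in the comparisons with RC/RC, though the rise of Cyp1b1 in RC/RC was not called. All 5 (Col1a1, Col3a1, Pdgfrb, Dcn and Lum) rose in RC/RC and 4 of the 5 fell in RC/RC:Casp1KO against RC/RC. In RC/RC:Casp1KO against WT the directions differed. The median log2 fold change of the markers was 1.02, with 1 called as higher, while Cyp1a1 and Cyp1b1 were at -0.24 and -0.40, both uncalled. The sum of the markers was 125 to 183 CPM in WT, 567 to 1323 CPM in RC/RC and 207 to 473 CPM in RC/RC:Casp1KO, with Col3a1 the most abundant. The highest sum was in RC/RC library 2, which also had the highest Cyp1a1 and Cyp1b1. The part of fibroblasts in the P450 values was not tested.

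The starts of Cyp1a1 and Cyp1b1 are shown because both genes fell together in RC/RC:Casp1KO against RC/RC and both are AHR targets. The sequences are the 250 bases before the RefSeq start (GRCm38.p6, the same assembly as mm10), 5' to 3' on the strand of the gene. Cyp1a1 covers chr9:57697363-57697612 on the plus strand and Cyp1b1 covers chr17:79715062-79715311 on the minus strand. Capitals mark the AHR core motif GCGTG or its reverse complement CACGC.
Cyp1a1: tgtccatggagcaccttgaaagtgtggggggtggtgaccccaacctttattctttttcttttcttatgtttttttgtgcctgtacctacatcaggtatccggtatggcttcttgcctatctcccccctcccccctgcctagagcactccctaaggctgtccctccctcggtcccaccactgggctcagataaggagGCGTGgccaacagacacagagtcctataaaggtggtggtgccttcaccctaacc
Cyp1b1: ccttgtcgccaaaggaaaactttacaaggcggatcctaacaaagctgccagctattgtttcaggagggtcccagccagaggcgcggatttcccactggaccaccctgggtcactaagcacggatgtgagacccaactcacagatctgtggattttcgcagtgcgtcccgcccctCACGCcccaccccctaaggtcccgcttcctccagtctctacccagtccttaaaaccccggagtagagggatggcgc
Each held 1 match, ending 50 and 72 bases before the start. Cyp46a1 and Cyp2j9, which were called as higher in the same comparison, held 4 and 1 matches. Among all 32851 promoters of that length 28.2% held a match on either strand, and among the 87 P450 promoters, of 77 of the 101 symbols, 19.5% did. A match is a run of letters and not a measured binding site.

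Cyp2a5, the coumarin hydroxylase, was at 67.0, 175, 171 and 113 CPM in WT libraries, 262, 187, 398 and 455 CPM in RC/RC and 411, 337, 329 and 447 CPM in RC/RC:Casp1KO. Both mutant groups lay wholly above WT and overlapped with each other. Cyp2a5 had a log2 fold change of 1.30 ± 0.35 in RC/RC against WT (edgeR adjusted p = 0.0418) and 1.54 ± 0.29 in RC/RC:Casp1KO against WT (edgeR adjusted p = 0.0333). Its transcript is 98.2% identical to that of Cyp2a4 over 1739 bases, so reads of the pair could be split between them. With the reads of Cyp2a5 and its near copies summed the log2 fold change was 0.43 in RC/RC (edgeR adjusted p = 0.553) and 0.67 in RC/RC:Casp1KO (edgeR adjusted p = 0.296), and neither was called. Both values are from fits without the surrogate variable. Cyp2a4, which enters the sum, was at 113 to 254 CPM in the Xist libraries and 530 to 765 CPM in the others. These fits did not allow for that split, so they do not show whether shared reads made the rise. The call of Cyp2a5 in RC/RC was kept in only 1 of the 8 fits that left out 1 library, the fit without RC/RC library 2, with edgeR adjusted p up to 0.113. That in RC/RC:Casp1KO was kept in 3 of 8, without WT library 1 or 3 or RC/RC:Casp1KO library 3, with edgeR adjusted p up to 0.0971.

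Cyp3a13, of the drug-metabolizing 3a subfamily, had 1.47 to 1.90 CPM in RC/RC against 0.200 to 1.00 CPM in WT, or 28 to 49 reads against 4 to 21. Its log2 fold change was 1.66 ± 0.42 (edgeR adjusted p = 0.0300). RC/RC:Casp1KO libraries lay between, at 0.443 to 1.65 CPM, and overlapped both groups. The call of Cyp3a13 was kept in 2 of 8 fits that left out 1 library, those without WT library 1 or RC/RC library 4, with edgeR adjusted p up to 0.0929.

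In family 4, which hydroxylates the end carbon of fatty acids and eicosanoids, 2 of the 15 genes tested rose in RC/RC, where 9.76% of all genes did. Cyp4f18, known for leukotriene B4 hydroxylation in neutrophils, had 1.78 to 2.70 CPM in RC/RC against 0.499 to 1.34 CPM in WT, a log2 fold change of 1.18 ± 0.32 (edgeR adjusted p = 0.0420). Cyp4f39, a fatty acid hydroxylase, had 0.426 to 0.773 CPM against 0.0478 to 0.250 CPM, or 9 to 18 reads against 1 to 5, a log2 fold change of 1.61 ± 0.46 (edgeR adjusted p = 0.0496). The groups did not overlap for either gene, but Cyp4f39 was called in 0 of the 7 fits without 1 library in which it passed the filter, and Cyp4f18 in 1 of 8 (without WT library 1), with edgeR adjusted p up to 0.126 and 0.119. RC/RC:Casp1KO values, at 0.831 to 2.54 CPM for Cyp4f18 and 0.115 to 0.617 CPM for Cyp4f39, overlapped both groups. Of 7 immune cell markers 6 rose in RC/RC, with sums of 96.3 to 109 CPM in WT libraries and 148 to 227 CPM in RC/RC, and their part in Cyp4f18 was not tested.

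The 20-HETE synthase gene Cyp4a12a illustrates how the surrogate variable changed the calls. It was at 2.49, 9.53, 229 and 75.7 CPM in WT libraries, 38.2, 22.6, 297 and 346 CPM in RC/RC and 29.5, 43.8, 565 and 418 CPM in RC/RC:Casp1KO. The groups overlapped, yet among the Xist libraries, and among the others, each mutant library lay above each WT library. The log2 fold change in RC/RC was 1.13 ± 1.24 in the main test (edgeR adjusted p = 0.570) and 1.93 with the surrogate variable (edgeR adjusted p = 0.00990). In RC/RC:Casp1KO against WT it was 1.74 in the main test (edgeR adjusted p = 0.457) and 1.99 with the surrogate variable (edgeR adjusted p = 0.0132). With the near copy Cyp4a12b summed, the fit with the surrogate variable gave 1.59 and 1.60. Cyp4a12b and Cyp2j13 were the other 2 added as higher in RC/RC, with log2 fold changes of 0.83 and 0.87 in that fit (edgeR adjusted p = 0.0418 and 0.0157). For Cyp2j13 the main test had the opposite sign, at -0.39 ± 1.96 (edgeR adjusted p = 0.914). In the Xist libraries Cyp2j13 had 8 and 13 reads in WT and 43 and 19 in RC/RC, while in the others it was at 496 and 318 CPM in WT and 255 and 373 CPM in RC/RC, which overlapped. Cyp4a32, Cyp27a1 and Cyp2s1 were added as lower, at -1.43, -0.50 and -0.53 (edgeR adjusted p = 0.00531, 0.0308 and 0.0105). Cyp4a32 had 7 to 226 reads per library, and its transcript is 96.5% identical over 1957 bases to that of Cyp4a10, which had 2894 or more, so its reads could be shared and a fit with them summed was not made. Cyp4a14, Cyp4a10 and Cyp4b1, the abundant members of the family, were called in neither fit.

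Epoxygenase and sterol genes did not pass the main test in RC/RC, in which 9.76% of all genes rose and 3.18% fell. With only 6 and 5 genes tested, counts of 0 are near those shares. None of the 6 genes tested from a list of epoxygenases was called in the main test, with a median log2 fold change of -0.52. Of these Cyp2j6 had the smallest p of all uncalled P450 genes, at 35.4 to 48.7 CPM in WT libraries and 23.2 to 37.8 CPM in RC/RC (edgeR adjusted p = 0.0759). Next among all uncalled P450 genes was Cyp2s1, which is not on the epoxygenase list. It was at 19.0 to 31.9 CPM in WT libraries and 15.6 to 21.0 CPM in RC/RC (edgeR adjusted p = 0.0767). The groups overlapped for both, and DESeq2 called both as lower (adjusted p = 0.0385 and 0.0384). None of the 5 sterol genes tested was called in the main test, though Cyp27a1 was with the surrogate variable as given above, and Cyp51 was at 152 to 360 CPM in WT libraries and 145 to 347 CPM in RC/RC. Cyp26b1, which degrades retinoic acid, was at 15.3 ± 10.3 CPM in WT, 9.13 ± 6.60 CPM in RC/RC and 3.83 ± 2.39 CPM in RC/RC:Casp1KO (SD, n = 4), and it was not called. Cyp11a1 and Cyp21a1 of steroid hormone synthesis had at most 2 reads in a library. None of the 6 steroid genes passed the filter. The 6 adrenal markers, led by Star, summed to 4.10 to 6.88 CPM in 11 libraries and to 17.7 CPM in RC/RC library 2, where Mrap was at 11.5 CPM. Star was at 2.23 to 5.26 CPM over all libraries, and the markers Nr5a1 and Hsd3b1 were at no more than 0.144 CPM.

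**Figure D3:**
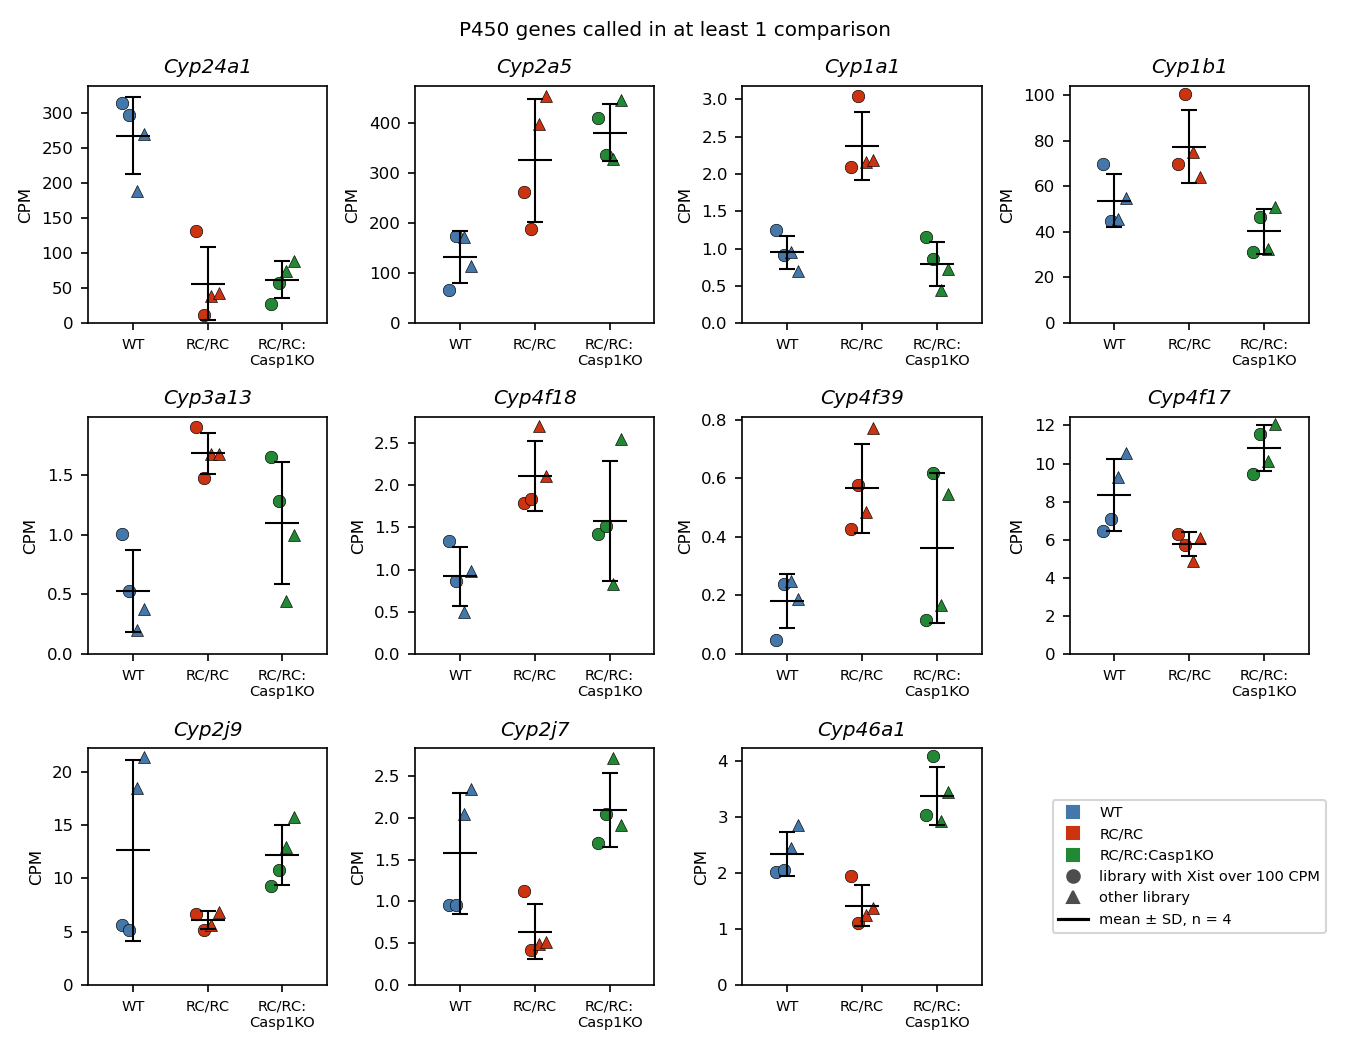
CPM of the 11 P450 genes called in at least 1 comparison, 1 point per library (circles, Xist over 100 CPM; triangles, other libraries), with mean ± SD of 4 libraries as bars. Cyp24a1 is highest in the 4 WT libraries, from 189 to 314 CPM, and Cyp1a1 in the 4 RC/RC libraries, from 2.09 to 3.05 CPM.

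Between RC/RC:Casp1KO and RC/RC kidneys, 47 P450 genes were tested and again 6 were called. Cyp4f17, Cyp2j9, Cyp46a1 and Cyp2j7 rose, and Cyp1a1 and Cyp1b1 fell. Of all 15428 genes tested 11.6% were called, 7.23% as higher and 4.41% as lower, against 8.51% and 4.26% of P450 genes, so again the shares were near the background. The sign of the log2 fold change was positive for 34 and negative for 13, with a median of 0.25 against -0.03 over all genes. With the surrogate variable 6 were called as higher and 2 as lower, against 9.74% and 7.34% of all genes, with all 6 of the main test among them. The 2 added were Cyp4a32 and Cyp4f14, both as higher, at 1.66 and 0.75 on the log2 scale in that fit (edgeR adjusted p = 0.00600 and 0.0310). Of the 47 tested P450 genes 4 lay wholly higher and 2 wholly lower than in RC/RC, and these were the 6 called genes. This separation was seen in 11.3% of all genes as higher and 9.18% as lower. Without RC/RC library 2 the counts were 3 higher and 0 lower, and without RC/RC:Casp1KO library 4 they were 4 and 2.

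Cyp46a1, the cholesterol 24-hydroxylase best known from brain, was at 3.04, 4.08, 2.94 and 3.45 CPM in RC/RC:Casp1KO and at 1.94, 1.10, 1.24 and 1.37 CPM in RC/RC. In WT it was at 2.01, 2.06, 2.45 and 2.86 CPM, between the other groups without overlap with either. The log2 fold change was 1.25 ± 0.24 in RC/RC:Casp1KO against RC/RC (edgeR adjusted p = 0.0171). Against WT it was -0.73 ± 0.26 in RC/RC (edgeR adjusted p = 0.0998) and 0.53 ± 0.21 in RC/RC:Casp1KO (edgeR adjusted p = 0.188), so neither mutant group was called against WT. The rise was lost without RC/RC library 3 or RC/RC:Casp1KO library 2, with edgeR adjusted p up to 0.0611.

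A pair of genes of the Cyp2j cluster on chromosome 4 rose with loss of Casp1. Cyp2j7 (chr4:96195197-96236659) was at 1.69, 2.04, 2.71 and 1.91 CPM in RC/RC:Casp1KO and at 1.12, 0.421, 0.486 and 0.515 CPM in RC/RC, and its log2 fold change was 1.69 ± 0.35 (edgeR adjusted p = 0.0210). In WT it was at 0.957, 0.957, 2.05 and 2.34 CPM and overlapped both mutant groups, and its log2 fold change in RC/RC against WT, -1.29 ± 0.45, was not called by edgeR (adjusted p = 0.0913) but was by DESeq2 (adjusted p = 0.0467). Cyp2j9 (chr4:96568429-96591578), of the list of epoxygenase genes, was at 9.27, 10.8, 13.0 and 15.8 CPM against 6.67, 5.15, 5.61 and 6.87 CPM, a log2 fold change of 1.00 ± 0.19 (edgeR adjusted p = 0.0170). In WT, Cyp2j9 was at 5.60 and 5.17 CPM in the Xist libraries and 18.4 and 21.4 CPM in the others, a range that held every RC/RC:Casp1KO library and all RC/RC libraries but library 2, which was just below it. Cyp2j5, Cyp2j6, Cyp2j11 and Cyp2j13 of the same cluster were not called. Cyp2j8, which lies between the pair, had too few reads for the filter of the edgeR test, with 10 to 15 reads per library in RC/RC:Casp1KO and 1 to 6 in RC/RC. DESeq2 called it as higher, with a log2 fold change of 1.90 (adjusted p = 0.0257). The call of Cyp2j7 was lost without RC/RC library 2 or 3 or RC/RC:Casp1KO library 2 or 3, and that of Cyp2j9 without RC/RC library 3, with edgeR adjusted p up to 0.0678 and 0.0572.

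Cyp4f17, of the fatty acid hydroxylase family 4, had the smallest adjusted p of the P450 genes in this comparison. It was at 9.47, 11.6, 10.1 and 12.1 CPM in RC/RC:Casp1KO, 6.32, 5.73, 4.91 and 6.10 CPM in RC/RC and 6.46, 7.08, 9.29 and 10.5 CPM in WT. Every RC/RC library lay below every library of the other groups, which overlapped with each other. The log2 fold change was 0.91 ± 0.15 (edgeR adjusted p = 0.00983), and it was called in all 8 fits that left out 1 library. Cyp4f13 and Cyp4v3 had the smallest p among the uncalled genes, with log2 fold changes of 0.26 ± 0.11 and -0.43 ± 0.20 (edgeR adjusted p = 0.136 and 0.168).

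Proximal tubule markers were followed beside these genes. Of 12 markers 2 fell in RC/RC against WT (Cubn and Slc5a2), where 3.18% of all genes fell. In RC/RC:Casp1KO against RC/RC 2 rose (Lrp2 and Cubn), where 7.23% of all genes rose. The sum of the 12 markers, led by Slc34a1, was 14727 to 19154 CPM in WT, 7098 to 15115 CPM in RC/RC and 14432 to 18223 CPM in RC/RC:Casp1KO. The ranges of all groups overlapped. The sum was lowest in RC/RC library 2. The median log2 fold change of the 12 markers was -0.73 in RC/RC against WT and 0.43 in RC/RC:Casp1KO against RC/RC, beside -0.40 and 0.25 for P450 genes. In RC/RC:Casp1KO against WT it was -0.17, beside -0.01 for P450 genes. Distal convoluted tubule markers, a list of 3 led by Slc12a3, had a median of -1.40 with 2 called as lower (Slc12a3 and Pvalb) in RC/RC against WT and 0.87 with 1 called as higher (Slc12a3) in RC/RC:Casp1KO against RC/RC. Their sum was 812 to 1194 CPM in WT, 161 to 407 CPM in RC/RC and 359 to 933 CPM in RC/RC:Casp1KO. The part of tubule content in the P450 values was not tested.

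**Figure D4:**
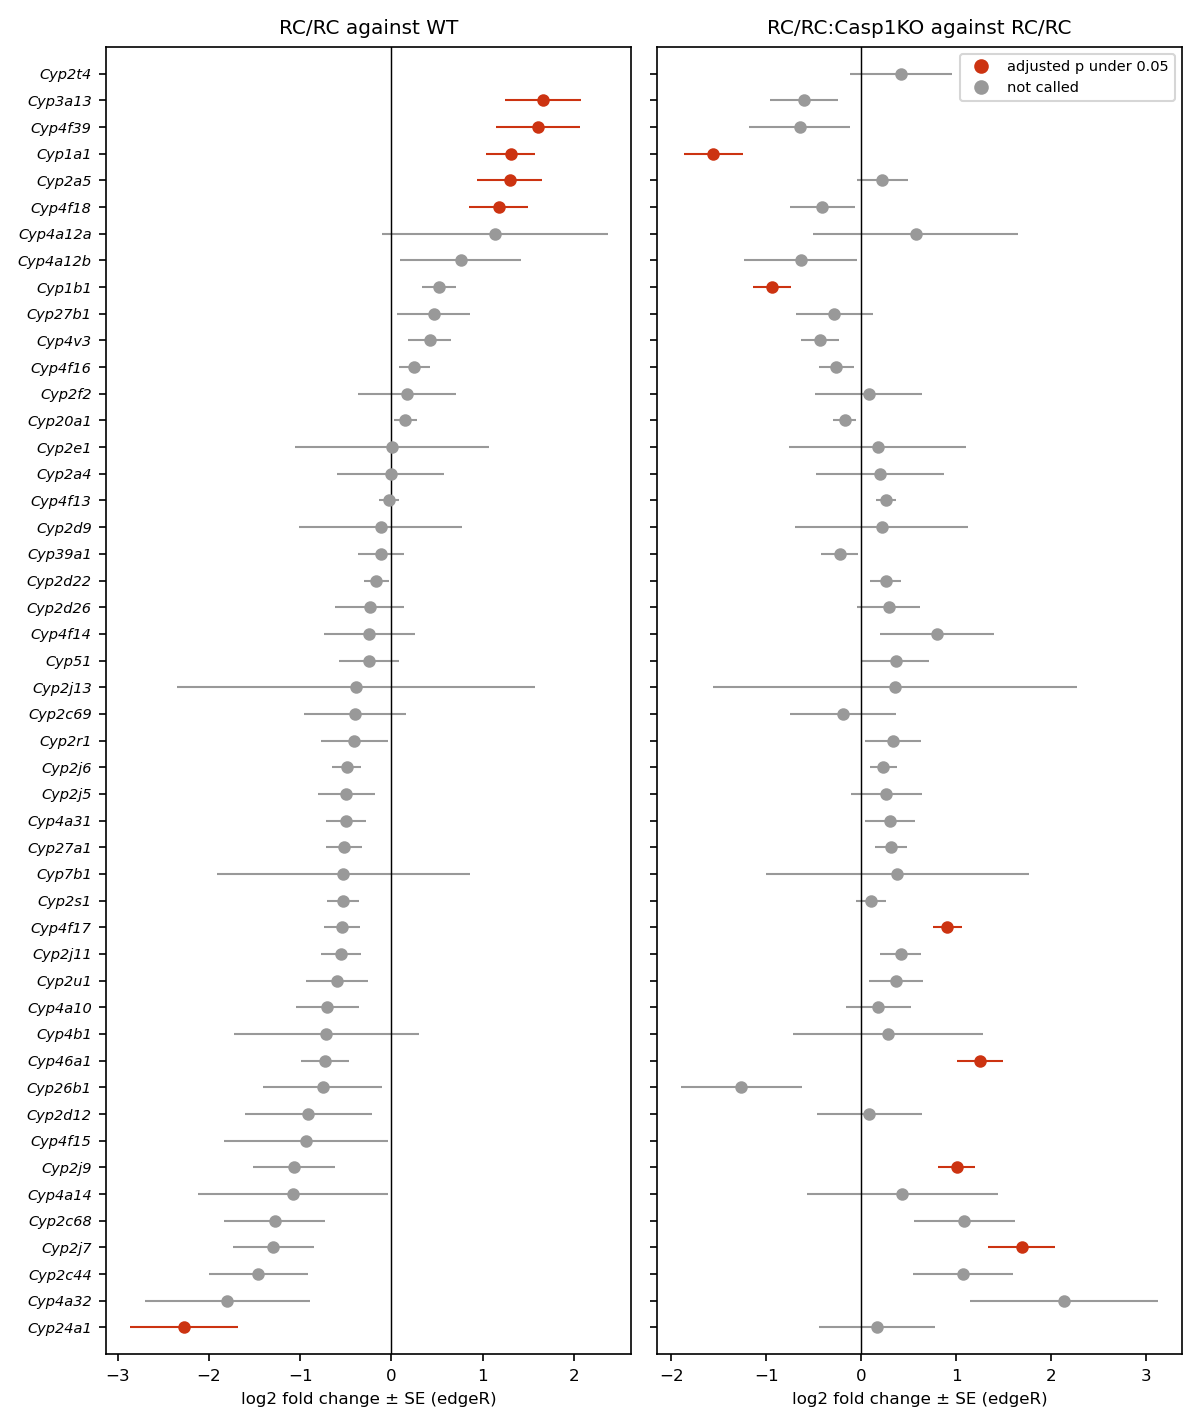
Log2 fold change ± SE of each P450 gene tested in RC/RC against WT (left) or in RC/RC:Casp1KO against RC/RC (right), ordered by the left panel, with called genes in red. There are 6 called genes in each panel, and both panels share the RC/RC libraries, so the RC/RC values enter them with opposite signs.

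Between RC/RC:Casp1KO and WT kidneys only Cyp2a5 and Cyp24a1 of the 48 P450 genes tested were called, with the values given above. That was 2.08% higher and 2.08% lower, against 1.13% and 0.893% of all 15346 genes tested and 2.03% in either direction. The median log2 fold change of the P450 genes was -0.01, against 0.01 for all genes. The uncalled genes with the smallest p were Cyp26b1 at -1.98 ± 0.62 (edgeR adjusted p = 0.131) and Cyp4f13 at 0.25 ± 0.09 (edgeR adjusted p = 0.175). The surrogate variable added Cyp4a12a as higher, against 4.72% of all genes called as higher and 3.8% as lower in that fit. Cyp2a5 and Cyp46a1 lay wholly above WT and Cyp24a1 wholly below, a separation seen in 7.47% and 6.22% of all genes.

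The partners and regulators of P450 enzymes were followed in a list of 32 genes, 30 of which could be tested. In RC/RC against WT 1 rose and 3 fell, in RC/RC:Casp1KO against RC/RC 4 rose and 1 fell, and in RC/RC:Casp1KO against WT 1 fell. The shares of all genes that rose and fell were 9.76% and 3.18%, 7.23% and 4.41%, and 1.13% and 0.893% in these comparisons. None of 7 electron donor genes was called in any comparison in the main test, and Por, the oxidoreductase, was at 359 to 460 CPM in WT, 240 to 391 CPM in RC/RC and 308 to 396 CPM in RC/RC:Casp1KO. Both epoxide hydrolases, which open the epoxides of arachidonic acid, were uncalled in it as well. Ephx1, one of them, was called as lower in RC/RC:Casp1KO against RC/RC with the surrogate variable, at -0.51 (edgeR adjusted p = 0.0401).

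Among the genes called in the list was Ppara, the fatty acid receptor that drives Cyp4a genes. It was at 85.8, 101, 76.4 and 91.1 CPM in WT libraries, 56.0, 31.0, 45.8 and 57.9 CPM in RC/RC and 75.7, 77.4, 77.8 and 71.7 CPM in RC/RC:Casp1KO. Every RC/RC library was below every other library. The log2 fold change of Ppara was -0.90 ± 0.19 in RC/RC against WT (edgeR adjusted p = 0.0130) and 0.66 ± 0.18 in RC/RC:Casp1KO against RC/RC (edgeR adjusted p = 0.0421). The fall was called in all 8 fits that left out 1 library, and the rise in 3, without RC/RC library 1, 2 or 4, with edgeR adjusted p up to 0.113. Cyp4a10, Cyp4a14 and Cyp4a31, known targets of Ppara, were not called in either comparison. Their log2 fold changes were -0.70 ± 0.35, -1.07 ± 1.04 and -0.50 ± 0.22 in RC/RC against WT. In RC/RC:Casp1KO against RC/RC they were 0.18 ± 0.34, 0.43 ± 1.00 and 0.30 ± 0.26, where Cyp4a14 was at -0.52 with the surrogate variable. The DR1 motif, AGGTCA repeated after any 1 base, which PPARA and related receptors are known to bind, was searched on both strands with up to 1 mismatch in the 250 bases before each start. It was found in 4 of the 87 P450 promoters, or 4.6%, and in 0.484% of all promoters. These 4 are not independent: Cyp3a25 has a pair of windows 1 base apart, and the transcripts of Cyp3a25, Cyp3a57 and Cyp3a59 are near copies, at 95.2 to 96.8% identity. These genes had at most 1 read in any library. Of the Cyp4a genes only Cyp4a29, Cyp4a30b and Cyp4a32 had a promoter to search, so the search says nothing of Cyp4a10, Cyp4a14 or Cyp4a31.

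Ptgis, the P450-fold enzyme that makes prostacyclin, moved the other way. It was at 9.14, 5.03, 5.64 and 5.95 CPM in WT libraries, 13.5, 28.6, 18.1 and 11.4 CPM in RC/RC and 7.70, 6.21, 3.71 and 9.04 CPM in RC/RC:Casp1KO, with RC/RC above all others. Ptgis had a log2 fold change of 1.47 ± 0.31 in RC/RC against WT (edgeR adjusted p = 0.0141) and -1.42 ± 0.34 in RC/RC:Casp1KO against RC/RC (edgeR adjusted p = 0.0314). Its rise was called in all 8 fits that left out 1 library, and its fall in 3, without RC/RC library 1 or 4 or RC/RC:Casp1KO library 4, with edgeR adjusted p up to 0.0870. Its highest value was in RC/RC library 2. Of the 8 genes of haem synthesis, which supply the P450 cofactor, Ppox rose by 0.65 ± 0.08 on the log2 scale in RC/RC:Casp1KO against RC/RC (edgeR adjusted p = 0.00406), from 25.9 to 27.9 CPM to 40.8 to 45.6 CPM. In WT, Ppox was at 24.8 and 29.2 CPM in the Xist libraries and 39.0 and 43.6 CPM in the others, so WT overlapped both mutant groups. Alas1, the first and rate-limiting enzyme of haem synthesis, fell in RC/RC:Casp1KO against WT by 0.99 ± 0.18 (edgeR adjusted p = 0.0308), from 235 to 344 CPM to 114 to 187 CPM. That call was kept in 3 of 8 fits, without WT library 3 or RC/RC:Casp1KO library 1 or 3, with edgeR adjusted p up to 0.0978. In RC/RC Alas1 ran from 116 to 436 CPM and overlapped both groups.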

How the data were processed

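Kidney poly(A) RNA of 12 mice (4 WT, 4 RC/RC, 4 RC/RC:Casp1KO) was sequenced. The authors deposited 1 table of raw read counts per gene for all libraries. The submitters' processing notes name CASAVA 1.8, STAR and mm10, and the counter, its strand setting and the annotation are not given in the sources used here. The table also holds FPKM values, group means, fold changes and p-values of the authors, which were not used. Columns were assigned to groups by their mouse names and to no replicate number, and libraries are numbered in column order.

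Counts were tested in edgeR 4.0.16 (R 4.3.3) with TMM factors, filterByExpr and the quasi-likelihood test on the 8 libraries of each comparison, with Benjamini-Hochberg adjustment over all genes tested. SE is the log2 fold change over the square root of F. CPM used TMM factors of all 12 libraries, and FPKM was computed from CPM and the gene lengths in the table. Alternatives used DESeq2 1.42.0, limma 3.58.1 on log2(FPKM + 1) and sva 3.50.0. Scripts were tested on simulated data. The 4 libraries of a group are separate mice by the labels, and the lowest chi-square per degree of freedom between 2 of them was 15.7, so none was a duplicate. Near copies were P450 transcripts (GENCODE vM39) at least 95% identical over 300 bases (BLAST 2.17.0). Promoters are from RefSeq GRCm38.p6. Starts of 87.1% of 20058 protein-coding genes in the table lay within 1000 bases of it. Protein sequences were not used here.

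The members and all lists were chosen with earlier results of these data known. Genes were named if called (or companion genes called), among the 10 highest in WT, on a list of 14 P450 genes of interest, or among the 2 uncalled P450 genes with the smallest p in each comparison. Other genes are marked as chosen after their values were seen or are listed for their Xist pattern or as added by the surrogate variable. The values of 1 called companion gene are not reported here.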

Additional observations from a re-analysis of the deposited data

Results flagged for a closer look

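The 4 libraries of each group were checked for a single value far from the others, in 119 groups of the named P450 genes and called companion genes. A gap above Dixon's 95% critical value was found in 4 of them, or 3.36%. The 5% rate of this check holds for 4 values drawn from a single normal population. In each group 2 of the 4 libraries had Xist. A gap between libraries with and without Xist lies in the middle of the range, where the check does not look. The share flagged therefore cannot show that single outlying values were rare. Cyp1a1 in RC/RC library 2 was at 3.05 CPM, above 2.09 to 2.19 CPM in the other 3, and that library also had the high fat genes. Cyp4f13 in the same library was at 30.4 CPM, below 36.1 to 37.2 CPM. Cyp2j7 in RC/RC library 1 was at 1.12 CPM, above 0.421 to 0.515 CPM. Cyp2d12 in RC/RC:Casp1KO library 3 was at 173 CPM, above 102 to 112 CPM.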

How the results depend on the processing

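Among single genes refitted under the settings named here other than near copies summed, and without each library, only the uncalled Cyp24a1 difference of RC/RC:Casp1KO against RC/RC changed sign, at -0.17 without RC/RC library 2 and -0.06 without RC/RC:Casp1KO library 4, with a range of -0.17 to 0.99 over the 8 fits that left out 1 library. Its edgeR adjusted p was 0.200 or more in each. Genes not refitted in this way could also change sign: with the surrogate variable Cyp2j13, at 0.87 as given in the report, and Cyp7b1, at 0.34 against -0.53 in the main test, did so in RC/RC against WT. Between RC/RC:Casp1KO and RC/RC, Cyp2j13 (-0.34 against 0.35), Cyp7b1 (-0.32 against 0.38), Cyp4a14 (-0.52 against 0.43), Cyp2e1 (-0.15 against 0.17), Cyp2f2 (-0.12 against 0.08) and Cyp2c69 (0.02 against -0.19) did so, uncalled in both fits. Between RC/RC:Casp1KO and WT, Cyp2j9 (0.13 against -0.05), Cyp2c68 (0.04 against -0.19), Cyp2a4 (-0.01 against 0.22), Cyp2d9 (-0.01 against 0.13) and Cyp20a1, Cyp4f16 and Cyp4v3, which were near 0 in both fits, did so, also uncalled. Cyp1b1 in RC/RC against WT was called in 1 of the 8 fits that left out a library, with edgeR adjusted p from 0.0442 to 0.266. Most calls of single P450 genes were lost in at least 1 fit that left out a library, as given beside each gene. In RC/RC against WT, DESeq2 called 3027 genes (1971 in the main test) and 5 P450 genes as lower, against 1. P450 genes called as higher fell from 5 to 3 with no filter on low counts and to 3 with at least 10 counts in every library, which leaves fewer P450 genes, and rose to 8 with 1 surrogate variable. Those called as lower were 3 with the dispersion of all 12 libraries and 4 with the surrogate variable. The median log2 fold change of P450 genes was -0.24 with no filter, -0.23 with at least 10 counts and -0.13 with limma on log2(FPKM + 1). Cyp4f39 was not called by DESeq2 (adjusted p = 0.0665), with RLE factors (0.0513), with no filter (0.0953) or with the dispersion of all libraries (0.0744), and Cyp4f18 was not called with no filter (0.0566).

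In RC/RC:Casp1KO against RC/RC the number of genes called was 1797 in the main test, 3172 with DESeq2, 993 with library size alone and 1052 with limma. P450 genes called as lower were 1, against 2, with library size alone, with limma and with at least 10 counts. Companion genes called were 8 with DESeq2 and with the surrogate variable and 3 with library size alone and with limma, against 5. In RC/RC:Casp1KO against WT the number of genes was 311 in the main test, 1387 with DESeq2, 167 with at least 10 counts and 1308 with the surrogate variable. P450 genes called as higher were 2 with the surrogate variable, and 0 were called as lower with the dispersion of all 12 libraries, where Cyp24a1 had an adjusted p of 0.0775. Companion genes called were 2 with DESeq2, 4 with the surrogate variable and 0 with library size alone or with the dispersion of all libraries, against 1. The median was 0.10 with library size alone and 0.11 with limma, against -0.01, so its sign changed. Cyp1b1 against RC/RC was not called with library size alone (0.0516) or limma (0.0505), nor Cyp2j9 with the dispersion of all libraries (0.110). Arnt was not called with library size alone (0.0765), limma (0.0746) or no filter (0.0653), Ptgis with library size alone (0.0569) or limma (0.0592), and Alas1 against WT with library size alone (0.0517) or the dispersion of all libraries (0.122). The cause of these changes was not tested beyond the filters.

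Leaving out 1 library at a time gave, in RC/RC against WT, 1162 to 2440 genes, 1 to 4 P450 genes higher and 0 to 4 lower, 2 to 5 companion genes and a median of -0.56 to -0.27. Between RC/RC:Casp1KO and RC/RC it gave 438 to 2789 genes, 1 to 6 and 0 to 2 P450 genes, 2 to 7 companion genes and a median of 0.079 to 0.33. Between RC/RC:Casp1KO and WT it gave 108 to 547 genes, 0 to 1 P450 genes in each direction, 0 to 1 companion genes and a median of -0.08 to 0.03. In RC/RC against WT, Ppara and Ptgis were called in all 8 such fits and Vdr in 6. In RC/RC:Casp1KO against RC/RC, Ppox was called in all 8, Ppara and Ptgis in 3 and Arnt in 1. Alas1 against WT was called in 3. Near copies summed and the same with 1 surrogate variable were chosen after seeing the data and were not run without each library. No paired analysis was possible because the columns carry no replicate numbers. Depth limits the 41 P450 genes under 1 CPM, most of which had too few reads to be tested.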

Other observations

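Some P450 genes that are abundant in liver were close to absent from these kidneys, while others, such as Cyp2e1, were among the highest. The genes of this paragraph were chosen after their values were seen. Cyp3a11, the main drug-metabolizing P450 gene of mouse liver, was at no more than 0.191 CPM in any library, Cyp2c29 at no more than 0.0554 CPM and Cyp8b1, of bile acid synthesis, at no more than 0.427 CPM. Cyp2b10, a known target of the receptor CAR, had 28 reads in WT library 3, 3 reads in WT library 4 and 0 reads in the other 10 libraries, each of which allows up to 0.166 CPM for a count of 0. Cyp2b9 was at 0.287 to 0.949 CPM in WT, at 0 to 0.162 CPM in RC/RC and at 0.192 to 0.379 CPM in RC/RC:Casp1KO. The WT and RC/RC libraries did not overlap for Cyp2b9, but it had too few reads to pass the filter of the edgeR test. DESeq2 called it as lower in RC/RC, with a log2 fold change of -2.70 (adjusted p = 0.0200). Floors cover counting error only.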
